A study of Mus musculus with 12 samples.

Results

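Unstimulated natural killer (NK) cells lacking the microRNA cluster Mirc11 were compared with unstimulated wild-type NK cells across all expressed genes. The members were the 6 libraries labelled unstimulated, 3 of genotype Mirc11-/- and 3 wild-type, out of 12 libraries in the series. All 12 were made from polyA RNA of NK cells grown out of mouse spleen with IL-2, and every sample, of either genotype, carried the strain label C57BL/6. The other 6 libraries came from cells of both genotypes stimulated through the receptor NKG2D for 6 h. They are used here as a second set of libraries. They also entered the fit of all 12 libraries, so the filter, scaling and spread behind each test rest on them too. The animals' age, how the deletion was made, whether it affected other cells of the mice and whether animals were pooled are not stated in the labels.

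NK cells are lymphocytes that kill infected or transformed cells by releasing perforin and granzymes and that secrete cytokines such as interferon gamma. The Mirc11 locus gives rise to miR-23a, miR-27a and miR-24, microRNAs processed from 1 primary transcript. A microRNA guides Argonaute proteins to messenger RNAs that pair with its seed (bases 2 to 8), which lowers their stability or translation, so that loss of a microRNA can be read in the messages that carry a matching site. The mature sequences are shown because their seeds define the sites counted further on. They are RefSeq entries on GRCm38.p6, from the plus strand of chromosome 8 within 84208518 to 84208921, written 5′ to 3′ with the seed in capitals.
miR-23a-3p: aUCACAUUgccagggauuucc
miR-27a-3p: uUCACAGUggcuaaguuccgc
miR-24-3p: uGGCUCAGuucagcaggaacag
The seed of miR-27a-3p also occurs in miR-27b-3p, and mature miR-24-3p is encoded a second time by Mir24-1 on chromosome 13, which lies outside the deletion. The seed of miR-24-3p also occurs in miR-5124b, miR-6369, miR-6410 and miR-6413. These matches cover only the entries used here and may be incomplete, also for miR-23a-3p.

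Wild-type libraries held 18.89 to 25.34 megacounts and Mirc11-/- libraries 15.14 to 18.53 megacounts, so the 2 genotypes did not overlap in depth. Mitochondrial genes took 12.33 to 13.17% of the counts in wild-type and 13.36 to 16.12% in Mirc11-/- libraries, again without overlap. The summed level of 12 NK marker genes overlapped, at 14400 to 17100 CPM (counts divided by the scaled library total in megacounts) in wild-type and 15100 to 16800 CPM in Mirc11-/- libraries. Gzmb, Prf1 and Gzma made up most of this sum. Gzmb was at 5760 to 6940 CPM in wild-type and 7100 to 7840 CPM in Mirc11-/- libraries. Prf1 went the other way, at 3050 to 3890 and 2200 to 2690 CPM. Tbx21 and Ncr1 were also higher without overlap. Libraries did not overlap for 17.8% of all genes tested, and none of the 12 markers passed the test below. The first principal component, with 30.6% of the variance, separated the genotypes. In bulk RNA, fewer cells of a type and less RNA per cell cannot be told apart.

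The deletion itself was barely visible in these polyA libraries. Mir27a (ENSMUSG00000065444) had 2, 3 and 3 counts in wild-type replicates 1 to 3 and 0 counts in each Mirc11-/- library. Mir23a and Mir24-2 had 0 counts in all 6 libraries, as did the related genes Mir23b, Mir27b and Mir24-1 on chromosome 13. None of these genes had enough counts to be tested, so the labels were checked only by the few Mir27a reads.

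Of 17457 genes tested, 193 (1.11%) differed between the genotypes at an adjusted p under 0.05 (edgeR quasi-likelihood test, Benjamini-Hochberg adjustment). Of these, 54 were higher in Mirc11-/- cells (0.309% of genes tested) and 139 were lower (0.796%). At an unadjusted p under 0.05 there were 1607 genes (9.21%). The 3 libraries of each genotype did not overlap for any of the 54 and 139 genes, which held higher for 8.87% and lower for 8.91% of all genes tested. Against a 1.5-fold change, 9 genes were higher (0.0516%) and 30 lower (0.172%), together 0.223% of genes tested. The count past 1.5-fold was 24 without Mirc11-/- replicate 2. The rises were mostly small, with a median log2 fold change of 0.71 and 19 of 54 at 2-fold or more, whereas the falls had a median of -1.04 with 70 of 139 at 2-fold or more. The median over all genes tested was 0.0076. The counts rested on each library: leaving out any 1 library lowered the count of higher genes by over 1.5 times, to between 17 and 33, and gave 52 to 121 lower genes. The lowest counts of lower genes were 52 without Mirc11-/- replicate 2, 57 without Mirc11-/- replicate 3, 58 without wild-type replicate 1 and 80 without wild-type replicate 2. A core of 65 genes, 15 higher and 50 lower, was past the threshold in every setting that gave the gene a value, leave-outs included (Gm7730 had none under the filter of 1 CPM in 3 libraries), and most of the genes described below belong to it.

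Itln1, Fcgr2b and H60b were nearly lost from Mirc11-/- cells. Itln1 (ENSMUSG00000038209, chromosome 1, 171518122 to 171535294), which encodes the sugar-binding lectin intelectin, had 13.1, 11 and 11.5 CPM in wild-type replicates 1 to 3 and 0 counts in all Mirc11-/- libraries. Set against a floor of 3 counts over the Mirc11-/- group (0.0588 CPM), Itln1 was at least 204-fold lower (adjusted p = 2.43e-06, edgeR). Fcgr2b (ENSMUSG00000026656, chromosome 1, 170958617 to 170976547), the inhibitory receptor for IgG, had 12.2, 11.6 and 10 CPM in wild-type and 0.0552, 0 and 0.234 CPM in Mirc11-/- libraries. No Mirc11-/- library came near the wild-type range, and the fitted difference was -6.76 log2 ± 0.487 (SE; adjusted p = 2.14e-05, edgeR). H60b (ENSMUSG00000075297, chromosome 10, 22158586 to 22288849), a ligand of NKG2D, had 4.79, 5.05 and 4.49 CPM in wild-type and 0.166, 0.189 and 0.234 CPM in Mirc11-/- libraries. It fell by 4.56 log2 ± 0.27 (adjusted p = 2.24e-06, edgeR), while its receptor gene Klrk1 differed by 0.16 log2 (adjusted p = 0.8). Capn11, a calpain protease gene, followed the same pattern at a low level, with 1.84, 0.879 and 1.12 CPM in wild-type and 0 counts in Mirc11-/- libraries, at least 22.6-fold lower.

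**Figure D1:**
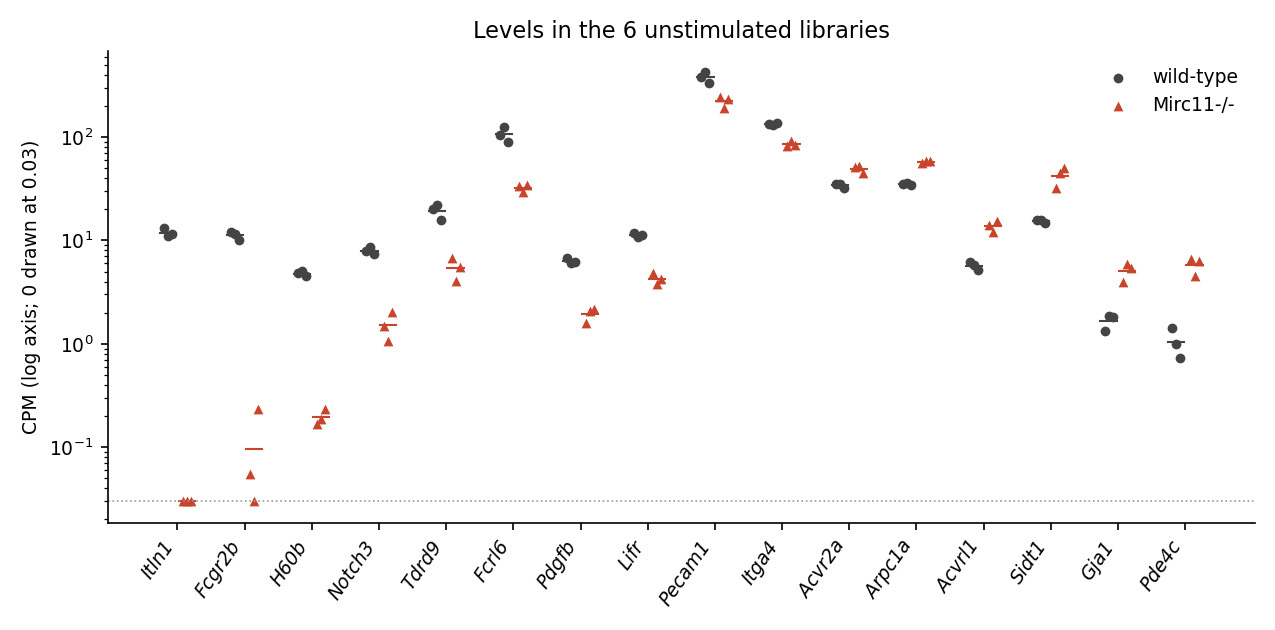
CPM of 16 genes on a log axis in the 3 wild-type libraries (circles) and 3 Mirc11-/- libraries (triangles) of unstimulated cells, with the mean of each group as a bar and values of 0 drawn at 0.03 on the dotted line. For each of the 16 genes the groups do not overlap, from Itln1 (11 to 13.1 CPM against 0) to Pde4c (0.722 to 1.41 against 4.54 to 6.68 CPM).

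Of the 65 core genes 50 fell, several of them genes of surface proteins. Fcrl6, of the Fc receptor-like family, had 104, 125 and 88.7 CPM in wild-type and 33.3, 29.6 and 34.3 CPM in Mirc11-/- libraries. Every Mirc11-/- value lay under the lowest wild-type value by more than the spread within either group, with a difference of -1.71 log2 ± 0.141 (adjusted p = 3.28e-05, edgeR). Pecam1, the adhesion molecule CD31, had 381, 424 and 335 CPM in wild-type and 242, 190 and 231 CPM in Mirc11-/- libraries. Pecam1 fell by 0.78 log2 ± 0.116 (adjusted p = 0.00349). Itga4, the alpha 4 integrin chain that binds VCAM-1, had 133, 130 and 138 CPM against 82.1, 91.4 and 82.9 CPM. It fell by 0.64 log2 ± 0.0781 (adjusted p = 0.000816). Cd55, which protects cells from complement, fell from 736 ± 67.9 to 439 ± 25.9 CPM (SD, n = 3 libraries per group; edgeR adjusted p = 0.00243). Notch3, a Notch receptor, fell from 7.98 ± 0.595 to 1.54 ± 0.49 CPM and Lifr, the receptor of leukaemia inhibitory factor, from 11.3 ± 0.487 to 4.27 ± 0.51 CPM. Further falls were those of the receptor phosphatase Ptprm (-1.39 log2), the laminin-binding integrin chain Itga3 (-0.81), the desmosomal cadherin Dsc2 (-0.85) and, among secreted proteins, the growth factor Pdgfb (-1.71). Core genes of surface proteins that rose (Acvrl1, Acvr2a, Sidt1, Gja1, Adgre5 and Cacna1a) are given with the rises and with the neighbours of the cluster.

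The core also held enzymes and cytoskeletal genes that were lower in Mirc11-/- cells. Tdrd9, an RNA helicase of the piRNA pathway, had 20.2, 22 and 15.8 CPM in wild-type and 6.73, 4.04 and 5.50 CPM in Mirc11-/- libraries, without overlap (-1.82 log2 ± 0.205, adjusted p = 0.000391, edgeR). Alox5, the 5-lipoxygenase of leukotriene synthesis, fell from 84.7 ± 5.7 to 52.2 ± 3.86 CPM. Scin, which severs actin filaments, fell from 165 ± 12.6 to 89.7 ± 13.5 CPM, and Cdc42bpa, a kinase that acts downstream of Cdc42, from 9.05 ± 1.83 to 2.98 ± 0.351 CPM. The glycosyltransferase genes B4galnt2, Mgat3 and B4galt6 fell, B4galnt2 by 1.33, Mgat3 by 0.97 and B4galt6 by 0.85 log2. Acsl1, which activates fatty acids, fell by 1.28 log2, the transcription factor gene Mef2c by 0.67 and the granzyme gene Gzmn by 1.76.

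The rises of the core were fewer. Sidt1 (ENSMUSG00000022696, chromosome 16, 44240180 to 44333196), a transmembrane protein of the SID1 family, had 15.9, 15.6 and 14.7 CPM in wild-type and 32.4, 45.1 and 49.7 CPM in Mirc11-/- libraries. All Mirc11-/- libraries were above the wild-type range, and Sidt1 rose by 1.46 log2 ± 0.127 (adjusted p = 3.87e-05, edgeR). Acvrl1 (ENSMUSG00000000530, chromosome 15, 101128522 to 101145336), the type I receptor ALK1 of the TGF-beta family, had 6.24, 5.77 and 5.13 CPM in wild-type and 14, 12.2 and 15.4 CPM in Mirc11-/- libraries. It rose by 1.28 log2 ± 0.176 (adjusted p = 0.00218). Acvr2a, the type II activin receptor of the same family, had 34.8, 35.4 and 32.2 CPM against 51.3, 52.1 and 45.2 CPM (0.54 log2 ± 0.0848, adjusted p = 0.00541). Arpc1a, a subunit of the actin-nucleating Arp2/3 complex, rose from 35.2 ± 1.1 to 57.7 ± 1.89 CPM (SD, n = 3 libraries per group; edgeR adjusted p = 0.00287). Gja1, the gap junction protein connexin 43, rose from 1.67 ± 0.292 to 5.08 ± 0.984 CPM, and Emid1 and Fam78a rose by 0.75 and 0.55 log2.

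Called genes lay unevenly along the genome. Chromosome 8, which carries the deleted cluster, held 34 called genes among 956 tested (3.56%), and chromosome 1 held 29 among 1277 (2.27%), against 1.11% over all genes. The values in this paragraph are counts with no test. Within 1 Mb of the cluster 11 of 61 genes tested were called (18%), 5 higher and 6 lower. The proportion was 1.96% at 1 to 5 Mb, 3.77% at 5 to 10 Mb, 8.08% at 10 to 20 Mb (16 of 198) and 0.675% beyond 20 Mb, and it was 0.964% on the other chromosomes. Of the 16 genes at 10 to 20 Mb, 14 lay on the side of lower coordinates and 2, the adjacent adhesion receptor genes Adgrg1 and Adgrg3, on the other. In the stimulated libraries, where 9.02% of all genes were called, 32.8% of the genes within 1 Mb and 19.7% of those at 10 to 20 Mb were called.

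**Figure D2:**
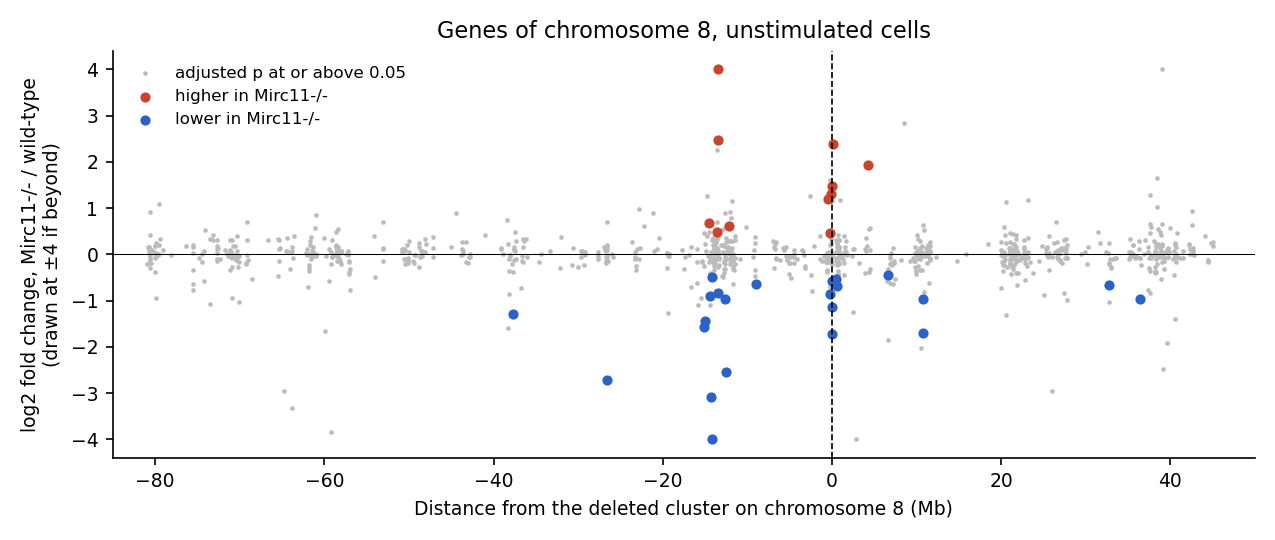
Log2 fold change of Mirc11-/- over wild-type in unstimulated cells for the 956 tested genes of chromosome 8, by distance in Mb from the deleted cluster (dashed line), with values beyond 4 or -4 drawn at 4 or -4. Called genes (red higher, blue lower) gather at the cluster, where 11 of 61 genes within 1 Mb were called, and 10 to 20 Mb from it, where 16 of 198 were.

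The neighbours of the cluster moved in both directions. Gm37352, an unnamed transcript model at 84200869 to 84203049, had 17.1, 18 and 16.2 CPM in wild-type and 54.6, 43.6 and 45.3 CPM in Mirc11-/- libraries (1.49 log2 ± 0.142, adjusted p = 9.01e-05, edgeR). Gm26532, a model that starts at 84208920, within the end of the Mir24-2 hairpin, had 3.41, 3.90 and 2.57 CPM in wild-type and 0.883, 1.26 and 0.820 CPM in Mirc11-/- libraries (-1.73 log2). Zswim4, the next named gene, had 30.6, 30.9 and 28.4 CPM against 20.8, 19.6 and 19.6 CPM (-0.58 log2 ± 0.0888). Reads of an overlapping or run-through transcript may have been counted with these genes. The strand setting of the counting is not given, and the part of such reads was not tested. Mri1, an enzyme of methionine salvage, had 31.4, 34.7 and 30.8 CPM in wild-type and 15.8, 15.8 and 12.6 CPM in Mirc11-/- libraries (-1.13 log2). Adgre5, the adhesion receptor CD97, had 8.36, 6.76 and 5.29 CPM against 16.6, 13.4 and 16.6 CPM (1.19 log2). Cacna1a, a calcium channel subunit, rose from 0.412 ± 0.087 to 2.18 ± 0.61 CPM. The calls of the other 5 genes within 1 Mb each ended without at least 1 library: Trmt1 (-0.53 log2) at an adjusted p = 0.0519 and Gadd45gip1 (-0.69) at up to 0.201 without Mirc11-/- replicates 2 and 3 respectively, Adgrl1 (-0.86) at up to 0.178 without Mirc11-/- replicate 3, and Podnl1 (2.12, 3.96 and 2 CPM against 7.12, 6.12 and 6.32 CPM) and Il27ra (0.45 log2) at up to 0.192 and 0.183 without wild-type replicate 1.

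Farther along chromosome 8, called genes also moved in both directions. Pde4c, a phosphodiesterase that degrades cyclic AMP (70723720 to 70751186), had 1.41, 0.989 and 0.722 CPM in wild-type and 6.68, 4.54 and 6.27 CPM in Mirc11-/- libraries (2.47 log2 ± 0.25, adjusted p = 0.000163, edgeR). The model Gm3336, which ends at 70722634 next to Pde4c, was at 0.0392, 0 and 0.0401 CPM in wild-type and 2.98, 2.14 and 4.22 CPM in Mirc11-/- libraries. Lzts1 (69132669 to 69184225) fell from 25.7 ± 2.09 to 9.41 ± 1.06 CPM (SD, n = 3 libraries per group; edgeR adjusted p = 2.93e-05), whereas the zinc finger gene Zfp868 (69610857 to 69625548) rose from 14.4 ± 0.101 to 22.9 ± 0.77 CPM (adjusted p = 0.000816). Pbx4, a homeobox gene, fell from 0.874 ± 0.189 to 0.0969 ± 0.0295 CPM. On the other side of the cluster, Adgrg3 had 63.9, 67.0 and 65.1 CPM in wild-type and 36.4, 30.1 and 32.9 CPM in Mirc11-/- libraries (-0.98 log2 ± 0.0854, adjusted p = 3.87e-05), and its neighbour Adgrg1 (GPR56) fell by 1.71 log2.

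The 10 Mb stretch with the most called genes was 170 to 180 Mb of chromosome 1, with 15 of 128 genes called (11.7%), 3 higher and 12 lower. It held Itln1, Fcgr2b, Fcrl6 and Cdc42bpa, described above, and a run of interferon-inducible Ifi200 (PYHIN) genes, a family of DNA-sensing and regulatory proteins. Of 12 members of that family on the list used, 3 fell and 1 rose (33.3%, against 1.11% of all genes), with a median log2 fold change of 0.07. Ifi202b, a member not on the list, also fell, with 0.628, 0.824 and 0.361 CPM in wild-type and 0 counts in Mirc11-/- libraries (at least 9.92-fold lower), a call that ended in 5 leave-outs (edgeR adjusted p up to 0.162 without Mirc11-/- replicate 2). Ifi203 had 92.4, 101 and 76.7 CPM in wild-type and 55.4, 54.6 and 50.8 CPM in Mirc11-/- libraries (-0.75 log2 ± 0.1, adjusted p = 0.00185, edgeR), without overlap. Ifi211 fell from 1.41 ± 0.468 to 0.199 ± 0.0773 CPM. Ifi206 went the other way, with 11.4, 14.8 and 8.26 CPM in wild-type and 32.4, 21.9 and 30.8 CPM in Mirc11-/- libraries (1.31 log2), although its call ended in 2 leave-outs (adjusted p up to 0.0758 without wild-type replicate 1). Ifi207 fell by 2.25 log2 at under 1 CPM, a call that ended in every leave-out (up to 0.219 without Mirc11-/- replicate 2). Copies of this family are alike in sequence: 78.9% of the 31-base words of Ifi211, 36.4% of those of Ifi206 and 21.9% of those of Ifi203 also occur in transcripts of other genes, so reads may have been divided among them.

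Lists of NK cell genes were read against the share of 1.11% called over all genes, which is less than 1 gene for a list of this size, so counts of 0 or 1 are near that background. No member passed among 32 microRNA targets named in earlier work, 18 NF-kB subunits, inhibitors and kinases, 21 AP-1 and immediate-early factors, 20 genes of NKG2D and its proximal signalling, 19 NK lineage transcription factors and 18 microRNA processing genes. Their medians ranged from -0.09 log2 (AP-1) to 0.06 log2 (NKG2D signalling). Some named genes not called in the main fit were called in alternative settings. Nr4a3 was called lower in 3 of 16. With the 6 unstimulated libraries alone, Ppif, Syk and Tbx21 were called higher and Ier3 lower. Of 29 ubiquitin modifiers and TRAF6 pathway genes, Tnip1 fell by 0.43 log2. Tnfaip3 (A20), Cblb, Itch and Traf6, regulators of receptor signalling by ubiquitin, had log2 fold changes of 0.04, -0.25, 0.08 and -0.02 (adjusted p 0.988, 0.322, 0.856 and 0.992). Of 16 NK cytokines and chemokines, only Tnfsf10, the death ligand TRAIL, was called (0.54 log2 higher), and the list's median was 0.27 log2. Ifng (interferon gamma), Csf2, Tnf, Ccl3 and Ccl4 had log2 fold changes of 0.27, -0.07, 0.05, 0.28 and 0.36 without passing the test (lowest adjusted p 0.746). The calls of Tnip1 and Tnfsf10 ended at an adjusted p of up to 0.168 and 0.134 without Mirc11-/- replicate 2.

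**Figure D3:**
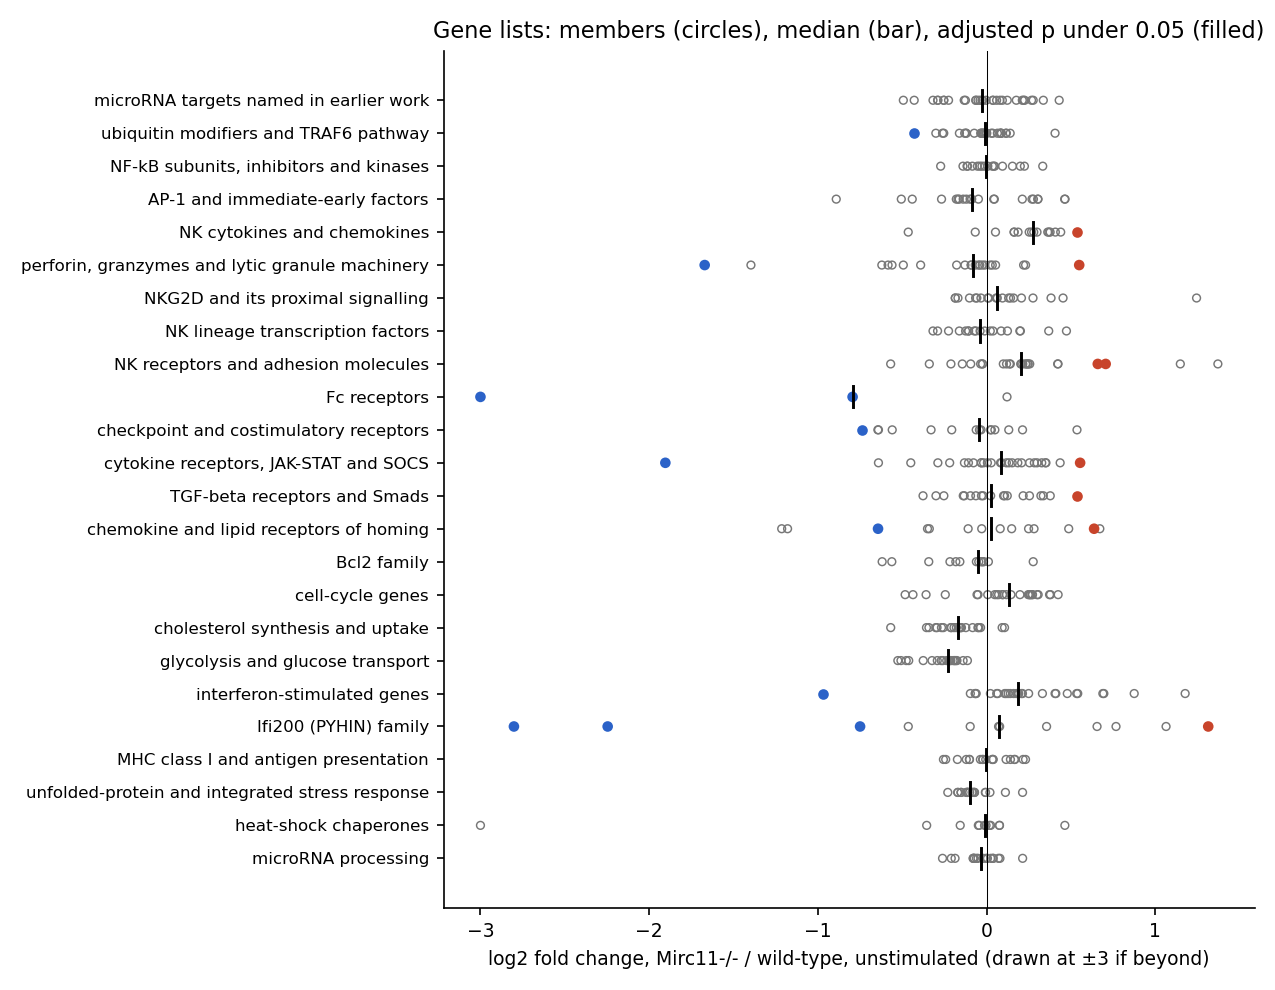
Log2 fold change of Mirc11-/- over wild-type in unstimulated cells for the tested members of 24 gene lists (circles, drawn at 3 or -3 if beyond), with the median of each list as a bar and members at an adjusted p under 0.05 filled (red higher, blue lower). Filled points are few in each list, and all 20 glycolysis genes lie left of 0 with none filled.

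Of 22 perforin, granzyme and granule genes listed, Gzmf fell and Ctsw rose (9.09%, against 1.11% over all genes), and the core fall Gzmn is a granzyme gene outside the list. Gzmf, granzyme F, had 1390, 1500 and 926 CPM in wild-type and 518, 314 and 368 CPM in Mirc11-/- libraries (-1.67 log2 ± 0.303, adjusted p = 0.0231, edgeR). The groups did not overlap, but the call ended in 4 of 6 leave-outs (up to 0.126 without Mirc11-/- replicate 3). Prf1 (perforin) and Gzmb (granzyme B) had log2 fold changes of -0.49 and 0.22 without passing (adjusted p 0.287 and 0.84). Ctsg and Mcpt8, which encode granule proteases of neutrophils and of mast cells and basophils, lie beside the granzyme genes on chromosome 14 and fell as well, Ctsg by 1.87 and Mcpt8 by 1.15 log2. The summed level of 12 neutrophil and mast cell markers was 66.7 to 80.9 CPM in wild-type and 33.6 to 51.8 CPM in Mirc11-/- libraries, a sum that includes Mcpt8 itself (40.2 to 52.6 and 17.7 to 24.4 CPM), and 5 of the 12 (Fcer1a, S100a8, S100a9, Prtn3 and Mcpt4) were at 0 in all 6 libraries. The part of such cells in these falls was not tested. The calls of Ctsg, Mcpt8 and Ctsw ended at up to 0.115 without Mirc11-/- replicate 3, 0.151 without Mirc11-/- replicate 2 and 0.0984 without wild-type replicate 1, respectively.

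The next lists were read against the same 1.11%. Of 3 Fc receptor genes tested, Fcgr2b fell, as described, and Fcgr3, the activating IgG receptor CD16, had 162, 171 and 131 CPM in wild-type and 95.7, 79.8 and 92.5 CPM in Mirc11-/- libraries (-0.79 log2 ± 0.151, adjusted p = 0.0197, edgeR). Of 15 checkpoint and costimulatory receptors, Havcr2 (TIM-3) fell by 0.74 log2. Of 28 listed cytokine receptor, JAK-STAT and SOCS genes, Csf2rb, the shared beta chain of the GM-CSF receptor, fell by 1.90 log2 and Stat4, which transmits the IL-12 signal, rose by 0.56 log2. The cytokine receptor genes Lifr, which fell, and Il27ra, which rose, are not on that list. Of 26 NK receptors and adhesion molecules, the integrin chains Itga2 (CD49b) and Itgam (CD11b) rose by 0.66 and 0.71 log2. Of 14 homing genes, Itga4 fell and Itgb7 rose (0.64 log2), and of 19 listed TGF-beta receptors and Smads, Acvr2a rose. Acvrl1, of the same receptor family, is not on the list. Apart from the core genes Fcgr2b, Itga4, Acvr2a, Lifr and Acvrl1, each of these calls ended in at least 4 of 6 leave-outs. The largest adjusted p values were 0.141 for Fcgr3, 0.161 for Havcr2, 0.102 for Stat4 and 0.246 for Itga2, all without Mirc11-/- replicate 2. They were 0.106 for Csf2rb without Mirc11-/- replicate 3, 0.168 for Itgb7 without Mirc11-/- replicate 1 and 0.218 for Itgam without wild-type replicate 1.

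Lists of glycolysis, cholesterol and cell-cycle genes held no called genes, which at 1.11% over all genes is near the background. All 20 genes of glycolysis and glucose transport had negative log2 fold changes, with a median of -0.23, and 20 of 22 cholesterol genes did, with a median of -0.17, against 8367 of 17457 negative over all genes. Of 26 cell-cycle genes 20 had positive values, with a median of 0.13. Genes of 1 pathway vary together, and none of these 68 genes passed the test in the main fit. Some calls turned on the setting. Of 16 alternatives, Cdkn1a was called lower in 5, Hmgcs1 in 4 and Ccnd2 in 3. Hk1 was called lower in 1, the 6 unstimulated libraries alone. Of 29 interferon-stimulated genes, Bst2 (tetherin), which lies on chromosome 8, fell by 0.97 log2, while 24 were positive and the list's median was 0.19. That call ended in 5 leave-outs (up to 0.157 without Mirc11-/- replicate 2). No member passed among 14 Bcl2 family genes, 19 MHC class I and antigen presentation genes, 12 heat-shock chaperones and 21 genes of the unfolded-protein and integrated stress responses. Negative values were held by 12 of the Bcl2 family genes, 10 of the MHC class I genes, 7 of the chaperones and 18 of the stress response genes. Bcl2a1d was called lower in 3 of 16 alternative settings.

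Markers of other cell types were low beside the NK markers and were mostly not called. T-cell markers summed to 443 to 582 CPM in wild-type and 507 to 623 CPM in Mirc11-/- libraries, with 10 of 12 higher and none called. Trbc1 and Cd28 made up most of the T-cell sum, at 210 to 259 and 129 to 169 CPM over the 6 libraries. Cd8a had 1.8, 1.65 and 0.962 CPM in wild-type and 3.97, 2.52 and 2.87 CPM in Mirc11-/- libraries. It was called only with no filter on low counts (edgeR adjusted p = 0.0348). B-cell markers summed to 59.7 to 73.6 and 66.8 to 76.1 CPM, and macrophage and monocyte markers to 9.30 to 11.7 and 5.49 to 10 CPM. Dendritic cell markers summed to 79.1 to 132 CPM in wild-type and 192 to 209 CPM in Mirc11-/- libraries. Most of that sum was Itgax (CD11c), with 64.6, 120 and 64.4 CPM against 178, 193 and 180 CPM (1.15 log2, adjusted p = 0.069, edgeR). The call on the log2 fold change of Itgax turned on the setting: it passed in 6 of 16 alternatives, from DESeq2 (adjusted p = 0.000114) and the replicate block (0.00181) to limma voom (0.0437), and without wild-type replicate 2 (0.00366). Of the other 9 markers, Cd209a was at 0, Zbtb46 was at 6.76 to 10.7 CPM and Xcr1 at 2.69 to 4.35 CPM over the 6 libraries. H2-Ab1 went the other way at a low level, with 1.1, 1.26 and 0.842 CPM in wild-type and 0.497, 0.126 and 0.586 CPM in Mirc11-/- libraries. Of the 6 dendritic cell markers tested, 3 had positive and 3 negative values, with a median of 0.0148 log2 and none called. The part of such cells was not tested. Erythroid and platelet markers summed to under 2 CPM in every library.

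The same genotype difference was then read in the 6 stimulated libraries. The labels do not say whether the cells came from the same cultures. The means compared come from other libraries, but 1 fit with a shared estimate of the spread gave both tests. A gene with a small spread is favoured in both. Calls in unstimulated cells are therefore not independent of calls in the stimulated libraries. Of the 193 genes, 188 had the same sign there and 135 (69.9%) were called in the same direction, against 3.89% of all genes called higher, 5.13% lower and 9.02% in either direction. None was called in the opposite direction. The number called in both fell to 62 without Mirc11-/- replicate 2 and 63 without Mirc11-/- replicate 3. It fell to 65 without wild-type replicate 1 and 85 without wild-type replicate 2. These leave-outs also called fewer genes in unstimulated cells. For the core, 65 of 65 had the same sign and 60 were called. Fcrl6 differed by -1.63 log2 in stimulated and -1.71 in unstimulated cells, Tdrd9 by -2.08 and -1.82, H60b by -4.21 and -4.56, and Lifr by -1.39 and -1.41. Fcgr2b differed by -2.75 log2 in stimulated and -6.76 in unstimulated cells, and it was at 15.2 CPM in stimulated wild-type and 2.26 CPM in stimulated Mirc11-/- libraries, on average. Of the 54 higher genes 28 were called again (51.9%), and of the 139 lower genes 107 (77.0%).

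**Figure D4:**
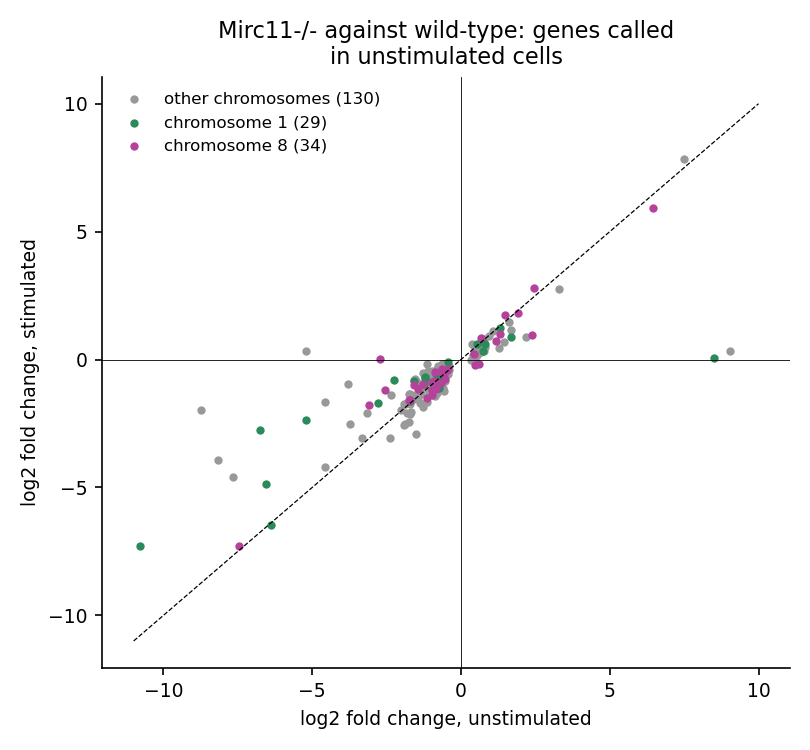
Log2 fold change of Mirc11-/- over wild-type in stimulated (y axis) against unstimulated cells (x axis) for the 193 genes called in unstimulated cells, coloured by chromosome, with equal values on the dashed line. Of the 193 points 188 lie in the quadrants of equal sign. Fold changes of genes at 0 in 1 genotype depend on the prior count of the fit.

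The core genes not called in stimulated libraries included Acvrl1, Cacna1a, Itga4 and Rian. Itga4 was at 133 ± 3.93 CPM in wild-type and 85.5 ± 5.15 CPM in Mirc11-/- unstimulated cells (SD, n = 3 libraries per group), and at means of 259 and 218 CPM in stimulated cells (-0.25 log2, edgeR adjusted p = 0.0586). Acvrl1 had means of 2.13 and 2.95 CPM in stimulated cells (0.47 log2, adjusted p = 0.151). Whether a genotype difference depended on the treatment was tested as the interaction, and for none of the 193 genes did it pass, although 47 of them had an unadjusted p under 0.05 (10.6% over all genes). For Fcgr2b the interaction was 4.01 log2 (adjusted p = 0.13, edgeR). Of the 1575 genes called in stimulated cells, 135 (8.57%) were also called the same way in unstimulated cells, where 1.11% of all genes tested were called in either direction. In the interaction test 2 genes in all passed (0.0115% of genes tested), with 1858 at an unadjusted p under 0.05. DESeq2 called 63. Leaving out 1 library gave 0 interaction calls for 4 of the 6 libraries (Mirc11-/- replicate 2 and each wild-type replicate), 1 without Mirc11-/- replicate 3 and 5 without Mirc11-/- replicate 1.

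In unstimulated cells the medians of messages with and without seed-matched sites differed by 0.0232 log2 or less for each microRNA. A site was a 7-base match in the annotated 3′ untranslated region on the transcript strand, AATGTGA for miR-23a-3p, ACTGTGA for miR-27a-3p and CTGAGCC for miR-24-3p. The 3 words were counted separately, also where they overlapped. Of 12796 tested genes with such a region 5326 (41.6%) had at least 1 site. The median log2 fold change of genes with a site minus that of the 7470 genes without was 0.0043 ± 0.018 (SD over the 3 Mirc11-/- libraries). The SD is over differences read in single Mirc11-/- libraries against the wild-type mean, on a log2 CPM scale. It leaves out the spread of wild-type libraries and is not the error of the fitted difference, which was not tested. For single microRNAs the difference was 0.0109 ± 0.0287 (miR-23a-3p, 17.1% of genes), 0.0051 ± 0.018 (miR-27a-3p, 18.2%) and -0.0029 ± 0.0136 (miR-24-3p, 19.5%). With 8-base sites it was 0.0232 ± 0.0277 for miR-23a-3p, where 55.4% of genes had a positive value against 50.1% without a site, 0.0121 ± 0.021 for miR-27a-3p and 0.0018 ± 0.0143 for miR-24-3p. In stimulated cells the median was 0.0193 with a 7-base miR-23a-3p site, 0.0108 with a miR-27a-3p site and -0.0049 with a miR-24-3p site, against -0.0887 without a site. Of genes with a site 0.432% were called higher and 0.789% lower, and of genes without 0.295% and 0.991%. Regions with a site were longer, with a median of 2154 bases against 741.5, and the part of length in these differences was not tested.

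**Figure D5:**
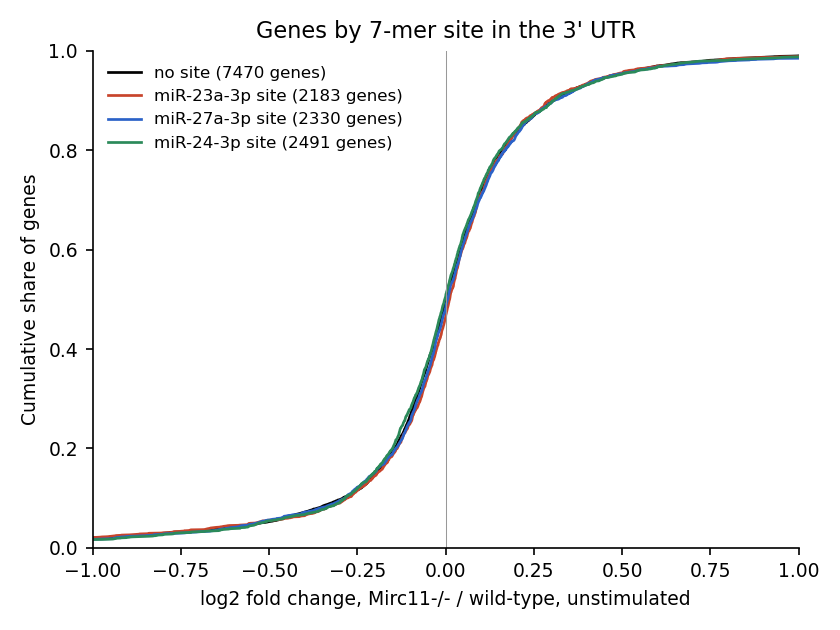
Cumulative share of genes by log2 fold change of Mirc11-/- over wild-type in unstimulated cells, for genes with a 7-base site for miR-23a-3p, miR-27a-3p or miR-24-3p and for genes with none, drawn from -1 to 1. The 4 curves lie on one another, with differences of medians of 0.0109, 0.0051 and -0.0029.

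Some called genes carried longer, 8-base matches, in both directions of change. The windows below are shown because Acvrl1, Cacna1a, Fam78a and Acvr2a were the core rises with such a match, and Lifr, Itga4 and Mef2c are among the core falls with the same words. They are 30 bases of GRCm38 transcript sequence (GENCODE vM21), 5′ to 3′ on the transcript strand, with the match in capitals.
Acvrl1, miR-23a-3p: tggtatttagaAATGTGAAgggttcaccca
Cacna1a, miR-27a-3p: gtgggcttgggACTGTGAAatattgcatga
Acvr2a, miR-27a-3p: atcaggagctcACTGTGAAtgcattatctt
Fam78a, miR-27a-3p: tcacggacagtACTGTGAAcacgaacccat
Fam78a, miR-24-3p: ttttgctgctgCTGAGCCAtttgtagggga
Lifr, miR-27a-3p: gtgtgagggaaACTGTGAAgactcatcagg
Itga4, miR-27a-3p: gttactatctcACTGTGAAgtctgagattt
Mef2c, miR-23a-3p: ccttctcttggAATGTGAAgatctgtcgat
The windows lie at chr15:101144625-101144654, chr8:84640171-84640200, chr2:48901416-48901445, chr2:32066983-32067012 (minus strand), chr2:32067771-32067800 (minus strand), chr15:7195053-7195082, chr2:79328836-79328865 and chr13:83664639-83664668, in that order. An 8-base match to at least 1 of the 3 seeds occurred in 2573 of the 12796 genes (20.1%), of which 11 were called higher (0.428%) and 22 lower (0.855%), near the 0.295% and 0.991% of genes without a site. The match is a description of the sequence, and binding was not measured. Acvrl1 and Acvr2a, both receptors of the TGF-beta family, rose as given above, while Lifr, with the same word as Acvr2a, fell by 1.41 log2.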

How the data were processed

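PolyA RNA of IL-2-expanded splenic NK cells was sequenced in 12 libraries, 3 in each of 4 groups that the design text calls biological replicates. RSEM 1.3.0, Bowtie2 2.2.8, Trim Galore 0.4.1, bcl2fastq and GRCm38 are the tools and build that the submitters' processing notes name. Annotation release and strand setting are not given in the sources used here. The deposited values are RSEM expected counts, rounded to whole numbers before deposit and not scaled between libraries. Of 50674 genes, 17457 passed filterByExpr and were tested. One fit of all 12 libraries (edgeR 4.0.16, R 4.3.3, TMM factors, robust quasi-likelihood, 1 mean per group) gave two-sided p values, with Benjamini-Hochberg adjustment over the 17457 genes and a threshold of 0.05. SE is that of the fit, and core genes are those past the threshold under every setting that gave them a value.

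Coordinates and 3′ regions came from GENCODE vM21, mature microRNAs from RefSeq. Named genes were a fixed set, the 15 largest rises and 15 largest falls at a mean log2 CPM of at least 2 without overlap, list members, neighbours of the cluster, and called genes with 8-base sites. Some are not reported here, and other named genes were picked with their values in view. Members and lists were chosen with earlier results of these data known. Replicate numbers were not used to pair the samples in the main fit. Same-numbered libraries of the 2 genotypes correlated in their deviations at 0.0367, -0.146 and -0.129. Between treatments, same-numbered libraries correlated at 0.0935, 0.226 and 0.135 in wild-type and 0.0723, -0.0651 and 0.141 in Mirc11-/- cells. Not all were above the limit of 0.1. Other pairs ranged from -0.167 to 0.0266 in wild-type and from -0.195 to 0.123 in Mirc11-/- cells. Every same-numbered wild-type pair lay above the other wild-type pairs, so pairing between treatments was not settled. Shared cultures would make the 2 treatments less independent than separate samples. Alternatives were other scalings, filters, tests (limma 3.58.1, DESeq2 1.42.0), depth and leave-outs. Floors of 3 counts cover counting error only.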

Additional observations from a re-analysis of the deposited data

Results flagged for a closer look

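The genes Ccl3 and Ifng had a genotype difference that changed between treatments in the interaction test. For Ccl3 the difference in stimulated cells minus that in unstimulated cells was -2.68 log2, and for Ifng it was -1.87 log2 (edgeR adjusted p = 0.0223 for each). In unstimulated cells alone Ccl3 had 35.2 ± 5.18 CPM in wild-type and 42.8 ± 5.27 CPM in Mirc11-/- libraries, and Ifng had 38.2 ± 2.39 and 46 ± 1.54 CPM (SD, n = 3 libraries per group), with no call for either gene. The interaction of Ccl3 passed in 9 and that of Ifng in 10 of 15 alternative settings, with adjusted p up to 0.147 without wild-type unstimulated replicate 3.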

How the results depend on the processing

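The 54 higher, 139 lower and 39 genes past a 1.5-fold change, the 135 also called in stimulated cells and the 2 interaction calls changed as follows. DESeq2 called 105 higher and 277 lower genes, 254 of them also in stimulated cells, and 63 interactions. The 6 unstimulated libraries alone gave 93 higher and 235 lower genes. With no filter 59 genes passed a 1.5-fold change and 47 the interaction, and limma voom gave 23 past a 1.5-fold change. Leaving out 1 library gave 17 to 33 higher, 52 to 121 lower and 24 to 39 genes past a 1.5-fold change, 62 to 113 shared with stimulated cells and 0 to 5 interactions; an arm of 2 libraries has fewer residual degrees of freedom. The cause of these changes, in the leave-outs as in the other settings, was not tested. Of the 193 genes 65 were called in every setting that gave them a value and 31 were called in no leave-out. Replicate number as a block, although pairing by number was not established, gave 45 higher and 131 lower genes, 155 of them among the 193. Without a composition factor 51 were higher and 163 lower. No value of a named gene that was called changed sign in any setting tried. Thinning all libraries to the smallest total gave 43 higher and 130 lower genes. Low levels limit precision: 14 higher and 40 lower genes had a mean log2 CPM under 2.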

Other observations

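Called genes in unstimulated cells were scattered over 107 of 293 stretches of 10 Mb, of which 7 held 4 or more. On chromosome 18, 4 of 26 genes tested between 20 and 30 Mb were lower in Mirc11-/- cells (15.4%), among them 3 desmosomal cadherin genes. Dsc2 had 343, 333 and 338 CPM in wild-type and 220, 161 and 182 CPM in Mirc11-/- libraries, and Dsg2 had 19.6, 17.9 and 16.6 against 11.9, 6.12 and 9.14 CPM. Dsc1 had 5.38, 4.83 and 5.17 against 2.48, 2.4 and 2.58 CPM. The call of Dsc2 held in every setting, while that of Dsc1 ended without wild-type replicate 1 (edgeR adjusted p = 0.0513) and that of Dsg2 in 4 leave-outs (up to 0.0994 without the same library). On chromosome 5, 6 of 35 genes tested between 10 and 20 Mb were lower (17.1%, against 1.11% called over all genes). In stimulated cells 57.1% of these 35 genes were called, against 9.02% over all genes. All 6 are unnamed models and are not described further. Of all called genes, 6 of the 54 higher and 15 of the 139 lower had over 50% of their 31-base words in transcripts of other genes. Reads may have been divided among such copies, which was not tested.

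Cysltr1, a receptor of cysteinyl leukotrienes, had 10.2, 10.4 and 6.94 CPM in wild-type and 3.86, 2.71 and 2.69 CPM in Mirc11-/- libraries (-1.56 log2), and Ptger4, a receptor of prostaglandin E2, had 41.7, 41.8 and 42.9 against 57.8, 57.5 and 58.7 CPM (0.46 log2). These calls ended in 3 and 5 leave-outs, at an edgeR adjusted p of up to 0.0763 without Mirc11-/- replicate 2 and 0.0925 without wild-type replicate 1. Epas1, the hypoxia-inducible factor HIF-2 alpha, had 73.9, 68.7 and 71.8 CPM in wild-type and 42.3, 24.2 and 28.2 CPM in Mirc11-/- libraries, a call that ended in 3 leave-outs (up to 0.0922 without Mirc11-/- replicate 3). Id3, an inhibitor of E-protein transcription factors, had 2.51, 2.58 and 1.92 CPM in wild-type and 4.64, 5.05 and 5.15 CPM in Mirc11-/- libraries, and its call ended in all 6 leave-outs (up to 0.125 without Mirc11-/- replicate 3). Dsc1, Dsg2, Epas1 and Id3 were picked with their values in view.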
